A study of Mus musculus with 6 samples.

Results

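The genes described here are 37 activity-regulated effector and feedback genes, that is genes whose transcription rises when a neuron fires and whose products act on the synapse or damp the signal that induced them. They were taken by name from a list of 37 symbols, with the Fos, Jun, Egr and Nr4a transcription factors left out, and each symbol matched 1 row of the 51826 genes in the deposited table. All 37 passed the filter on low counts and were among the 18956 genes tested. The mRNA of mouse brain tissue, labelled as the paraventricular nucleus (PVN), a nucleus of the hypothalamus, was sequenced in 6 libraries. The 3 knockout (KO) libraries came from mice that lack ADAM17 in glutamatergic neurons, 2 labelled male (replicates 1 and 2) and 1 labelled female (replicate F1), and the 3 wild-type (WT) libraries had the same composition. ADAM17 is a membrane protease that sheds growth factors and cytokine precursors from the cell surface. The series asked how its loss in these neurons affects gene expression in this tissue. Its title names angiotensin II, but no label gives a treatment. The driver of the knockout, the deleted exon, the strain, the age and whether a library is 1 animal or a pool are not stated in the labels, so p-values measure the spread between these libraries.

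When a neuron fires, calcium entering through glutamate receptors and voltage-gated channels activates calmodulin-dependent kinases and the Ras-ERK cascade. These act on transcription factors already bound to DNA, above all CREB, which binds the cAMP response element (CRE), and serum response factor (SRF), which binds the CArG box. The first genes induced encode transcription factors and, in parallel, effectors that reshape synapses, secreted peptides, and phosphatases, kinases and GTPase-activating proteins that switch the cascade off again. In the hypothalamus such genes are widely read as markers of recent neuronal activity, for example under osmotic or cardiovascular challenge.

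The promoters of 24 of the 37 genes were in the RefSeq promoter table (build GRCm38.p6), with 37 windows of 300 bases, each running from 250 bases before a transcription start to 50 after it. The other 13 had no window and were not searched: Arc, Nptx1, Nptx2, Nrn1, Vgf, Dusp4, Spry4, Trib1, Sik1, Ier2, Klf10, Crem and Bhlhe40. The full CRE, TGACGTCA, which reads the same on both strands, was found in the windows of 5 of these 24 genes (20.8%), namely Dusp1, Maff, Plk2, Btg2 and Scg2, against 2.03% of all 27025 genes in the table. The short CRE, TGACG or its complement CGTCA, counted also inside a full CRE, was found in 14 of the 24 (58.3%), against 23% of all genes. A CArG box on either strand was found in Dusp5 alone (4.17%), against 1.81% of all genes, and TATAAA or its complement in 4 genes (16.7%), Gadd45b, Gadd45g, Inhba and Rgs4, against 15.7%. The stretches below show the 5 members with a full CRE and the 1 member with CArG boxes, 120 bases each, written 5′ to 3′ on the strand of the gene, with the CRE or the CArG boxes in capitals.
Dusp1, chr17:26508552-26508671, minus strand: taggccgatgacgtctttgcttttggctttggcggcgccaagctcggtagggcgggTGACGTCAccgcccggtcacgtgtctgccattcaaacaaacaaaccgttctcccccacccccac
Maff, chr15:79347435-79347554, plus strand: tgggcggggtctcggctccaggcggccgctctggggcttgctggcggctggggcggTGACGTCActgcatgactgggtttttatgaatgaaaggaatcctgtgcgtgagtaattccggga
Plk2, chr13:110394926-110395045, plus strand: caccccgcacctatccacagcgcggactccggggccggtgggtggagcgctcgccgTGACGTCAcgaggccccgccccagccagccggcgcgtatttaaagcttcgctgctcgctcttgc
Btg2, chr1:134079258-134079377, minus strand: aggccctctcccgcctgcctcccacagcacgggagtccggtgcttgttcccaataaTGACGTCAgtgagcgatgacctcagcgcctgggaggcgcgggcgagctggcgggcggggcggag
Scg2, chr1:79440031-79440150, minus strand: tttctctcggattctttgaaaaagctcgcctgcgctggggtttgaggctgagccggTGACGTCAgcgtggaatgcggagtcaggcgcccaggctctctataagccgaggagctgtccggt
Dusp5, chr19:53529007-53529126, plus strand: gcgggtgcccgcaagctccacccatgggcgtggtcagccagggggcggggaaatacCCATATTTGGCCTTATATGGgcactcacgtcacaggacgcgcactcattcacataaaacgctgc
The first base of the CRE lay 143 bases before the start in Dusp1, 166 in Btg2, 68 in Scg2, 62 in Plk2 and 29 in Maff, and the CArG boxes of Dusp5, which adjoin each other, began 82 and 72 bases before it. A match of letters is a description of the sequence and shows no binding.

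Libraries held between 35114426 and 54421330 counts. The libraries differed in RNA make-up, and the part of this in the results below was not tested. The share of counts from mitochondrially encoded genes was 20.6%, 9.2% and 7.8% in KO replicates 1, 2 and F1, against 7.26%, 7.22% and 7.64% in WT replicates 1, 2 and F1. The PVN markers Avp and Sim1, named after their values were seen, stood below the forebrain marker Nrgn in every library. Levels of different genes do not show how much of a library is PVN. Avp and Sim1 do not stand for the whole list. Of the 10 PVN markers 4 had a log2 fold change above 0 and 6 below, with a median of −0.21. That median was 0.07 without WT replicate F1. The 10 are described further below by counts, medians and summed levels. The vasopressin gene Avp stood at 13.4, 30.6 and 54.8 TPM, a share of the library's transcripts corrected for length, in the KO libraries and at 113, 24.2 and 158 TPM in the WT libraries, and the PVN transcription factor Sim1 at 0.20, 0.18 and 0.52 TPM in KO and 0.53, 0.31 and 1.08 TPM in WT. Nrgn, a calmodulin-binding protein of forebrain excitatory neurons, stood at 1865, 2330 and 2128 TPM in KO and 2235, 2272 and 992 TPM in WT. Adam17 itself stood at 15.4, 14.6 and 13.9 CPM, counts relative to library size with TMM scaling, in KO and 17.1, 17.2 and 15.6 CPM in WT. The KO values lay below the WT values without overlap, with a log2 fold change of −0.19 (SE 0.11) that missed the threshold (edgeR adjusted p = 0.747). From here on, 3 values of a genotype are those of its replicates 1, 2 and F1 in that order.

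The members spanned a wide range of levels. By mean TPM over the 6 libraries, which corrects for transcript length, 6 members stood above 100 TPM, 19 between 10 and 100, 11 between 1 and 10, and 1 below 1, with a median of 17. The granin Scg2 (439 TPM) was highest, followed by the G protein regulator Rgs4 (263), the surface-anchored neuritin Nrn1 (221), the peptide precursor Vgf (203), the pentraxin Nptx1 (179) and the kinase Plk2 (126). Homer1 (81.7), Bhlhe40 (63.1), Dusp14 (62.8) and Arc (56.3) came next, and the transcription factors Maff (2.12) and Atf3 (0.60) were lowest. Of the 37, 18 differed by less than 1.5-fold in CPM between their highest and lowest library and 9 by more than 2-fold. KO replicate 1 held the highest CPM of 17 members (45.9%), against 28.3% of all genes tested. KO replicate 2 held the highest of 10 members (27.0%), against 14.2% of all genes tested. WT replicate F1 held the lowest of 18 members (48.6%), against 20.3% of all genes tested.

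**Figure D1:**
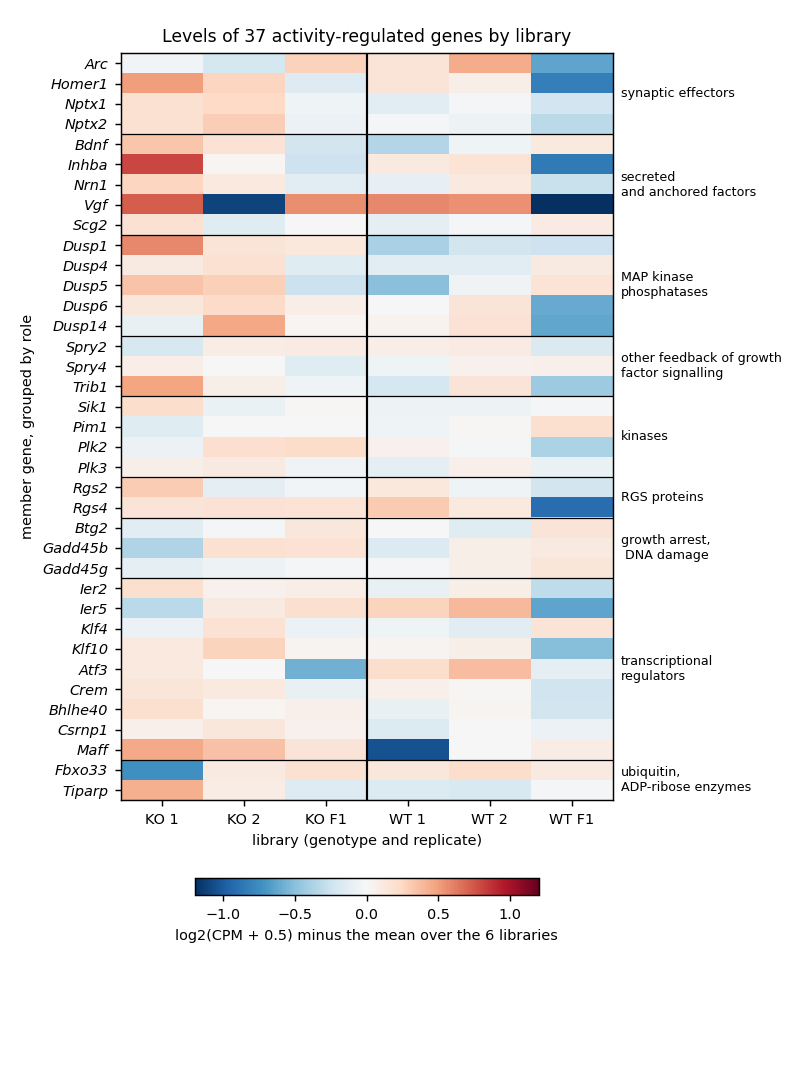
Level of each of the 37 members (rows, grouped by role) in each library (columns, KO left of WT), as log2(CPM + 0.5) minus the gene's mean over the 6 libraries; red is above and blue below that mean. The column of WT F1 is the bluest, with the lowest value of 18 members. The column of KO 1 holds the highest value of 17 members and that of KO 2 the highest of 10. Vgf is low in both KO 2 (96.8 CPM) and WT F1 (85.4 CPM).

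No member passed the threshold between KO and WT. In the edgeR fit with genotype and sex as terms, 0 of 37 had a Benjamini-Hochberg adjusted p under 0.05 (smallest 0.735), where 1 of all 18956 genes did (0.00528%), Noct, which encodes nocturnin. DESeq2, voom with sample quality weights and limma-trend on TPM also called 0 members. At an unadjusted p under 0.05 there were 4 members, Dusp1, Homer1, Nptx1 and Nptx2, against 6.38% of all genes tested. All 4 were on the higher side, where 3.85% of all genes stood, and none on the lower side, where 2.53% stood. In 3 members, Dusp1, Maff and Csrnp1, every KO library lay above every WT library, as for 6.61% of all genes tested, and in 1, Gadd45g, every KO library lay below, as for 7.32%.

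The fold changes were small and mostly above 0. With TMM scaling 30 of 37 members had a log2 fold change above 0, where 49.4% of all genes tested did, and the members' median was 0.17, against −0.0036 over all genes tested. The count depended on the scaling. With library totals 19 of 37 were above 0, where the median of all genes moved to −0.17. On log2(TPM + 1) 8 of 37 were, where it moved to −0.25. Counts on log2(TPM + 1) given below for roles and lists stand beside this same median of −0.25. Relative to the median of all genes the members' median stood 0.17 higher in the edgeR fit, 0.17 higher with library totals and 0.12 higher on log2(TPM + 1). On log2(TPM + 1) with no filter on low values it stood 0.01 lower. The members' median was −0.13 with and without that filter. Only the median of all genes moved, from −0.25 over 18447 genes to −0.12 over 32824 genes. With 1 library left out, 26 to 30 of 37 were above 0 and the median was between 0.11 and 0.21. Leaving out WT F1 or KO F1, or keeping the males alone, gives nearly the same values, since each leaves genotype to be read from the male libraries. In a fit without WT F1 and KO 1 together, 24 of 37 were above 0 and the median was 0.06, but that fit has no sex term and holds KO F1 as its only female library, so sex enters its genotype difference. In 28 of the 37 members leaving out 1 library moved the log2 fold change by over 1.5 times or turned its sign, which turned in 11. The share of all genes that did so was not counted, and values near 0 meet this rule easily. Leaving out 1 library did neither in the other 9, Homer1, Nptx1, Nptx2, Dusp1, Trib1, Gadd45g, Crem, Bhlhe40 and Csrnp1. The members' median absolute log2 fold change was 0.19, against 0.16 over all genes tested. Among the 24 members with a promoter window, the 5 with a full CRE had log2 fold changes of 0.73 (Maff), 0.59 (Dusp1), 0.24 (Plk2), 0.03 (Scg2) and −0.01 (Btg2). The other 13 members were not searched for a CRE. In tissue RNA, fewer cells of a type and less RNA per cell cannot be told apart.

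**Figure D2:**
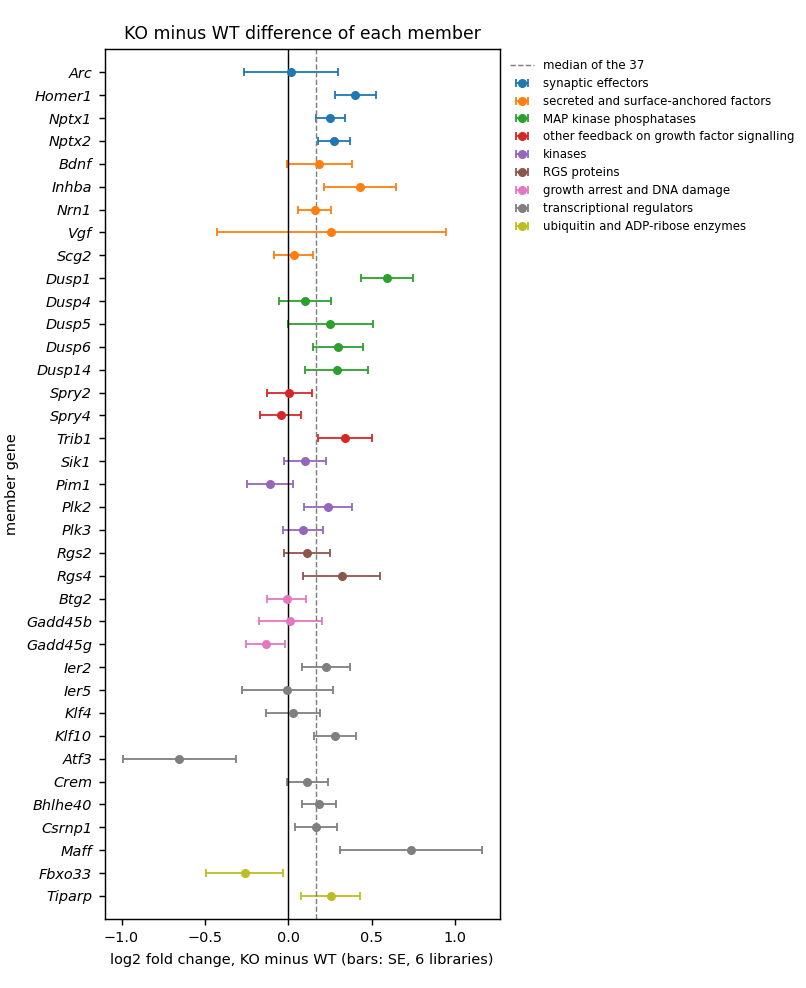
Log2 fold change of each member, KO minus WT, from the edgeR fit on 6 libraries (points; bars are the SE), coloured by role, with the median of the 37 as a dashed line at 0.17. Of the 37 points 30 lie right of 0. On log2(TPM + 1) 8 did, where the median of all genes was −0.25. With library totals 19 did, where it was −0.17. The bars are widest for Vgf and Maff.

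The synaptic effectors held 3 of the 4 members at an unadjusted p under 0.05. Homer1 encodes a scaffold that ties metabotropic glutamate receptors to Shank and to intracellular calcium channels (chromosome 13, 93299635 to 93405129, plus strand, positions as deposited and read as GRCm38). Its level was 181, 153 and 115 CPM in the KO libraries, against 143, 135 and 72.1 CPM in the WT libraries (log2 fold change 0.40, SE 0.12, edgeR adjusted p = 0.735). The genotypes overlapped: the female KO library lay below both male WT libraries, and WT F1 was the lowest of the 6. With 1 library left out the Homer1 difference was between 0.27 (without WT F1 or KO F1) and 0.51 (without KO 2). Without WT F1 and KO 1 together, in the fit with no sex term, it was −0.05. Gene counts do not separate the short, activity-induced form of Homer1 from the long forms.

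The pentraxins Nptx1 and Nptx2 are secreted at excitatory synapses, where they cluster AMPA receptors. Nptx1 (chromosome 11, 119538719 to 119547753, minus strand) stood at 497, 516 and 422 CPM in KO, against 401, 430 and 371 CPM in WT (0.25, SE 0.087, edgeR adjusted p = 0.735). Nptx2 (chromosome 5, 144545902 to 144557478, plus strand), the more strongly activity-induced of the pair, stood at 56.2, 60.7 and 47.0 CPM in KO, against 48.6, 47.3 and 39.4 CPM in WT (0.27, SE 0.095, edgeR adjusted p = 0.735). For both genes the male KO libraries lay above the male WT libraries and KO F1 above WT F1, while KO F1 lay within or below the male WT range. On log2(TPM + 1) the differences were −0.04 for Nptx1 and −0.02 for Nptx2, where the median of all genes was −0.25.

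Arc encodes a protein that drives internalisation of AMPA receptors and is among the genes most used to map recently active neurons. It stood at 75.6, 67.0 and 93.9 CPM in KO, against 86.4, 105 and 49.6 CPM in WT, a log2 fold change of 0.01 (SE 0.28, edgeR adjusted p = 0.993). The male KO libraries were below the male WT libraries and the female KO library was above the female WT library. Without WT replicate F1 the Arc difference was −0.43, and without KO replicate 2 it was 0.22. Over the 4 synaptic effectors the median log2 fold change was 0.26, with 4 of 4 above 0, a count that was 1 of 4 on log2(TPM + 1) and 3 of 4 without WT replicate F1.

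**Figure D3:**
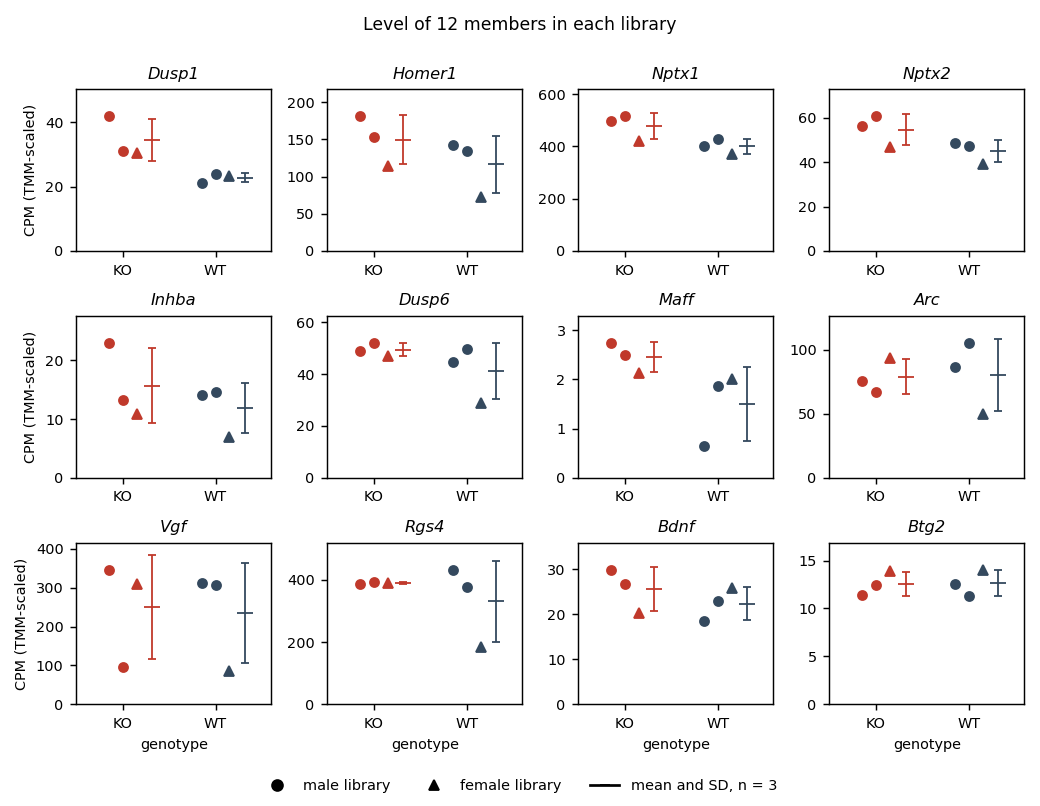
CPM of 12 members in each library (y axis from 0), KO left of WT, with circles for male and triangles for female libraries and the mean and SD of 3 libraries beside them. In Dusp1 the 3 KO points, from 30.3 to 41.8 CPM, lie above the 3 WT points, from 21.1 to 23.8 CPM. In Homer1, Nptx1, Nptx2, Inhba, Dusp6, Arc, Vgf and Rgs4 the female WT library is the lowest of the 6.

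The secreted and surface-anchored factors had no member at an unadjusted p under 0.05. Bdnf, the neurotrophin ligand of the receptor TrkB, stood at 29.9, 26.7 and 20.2 CPM in KO, against 18.5, 22.8 and 25.8 CPM in WT (0.19, SE 0.19). The male KO values were above both male WT values, and the female values stood the other way round. The Bdnf difference was 0.02 without WT replicate 1 and 0.46 without WT replicate F1. Inhba encodes the subunit of activin A, and its level was 23.0, 13.3 and 10.9 CPM in KO, against 14.1, 14.6 and 6.98 CPM in WT (0.43, SE 0.22, edgeR adjusted p = 0.738). KO replicate 1 was the highest library and WT replicate F1 the lowest, and the genotypes overlapped. The Inhba difference was 0.21 without KO replicate 1, 0.66 without KO replicate 2 and 0.33 without WT replicate F1. Inhba overlaps the opposite-strand gene model AC121583.1, with a mean of 4.75 CPM, and the strand setting of the counting is not given, so reads of the pair may be mixed.

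Nrn1 encodes neuritin, a lipid-anchored protein that promotes growth of dendrites and axons. It stood at 199, 180 and 151 CPM in KO, against 155, 180 and 138 CPM in WT (0.16, SE 0.10), and the groups overlapped. Without WT replicate 1 the Nrn1 difference was 0.09. Vgf, the precursor of several neuropeptides and a target of BDNF signalling, stood at 347, 96.8 and 309 CPM in KO, against 312, 308 and 85.4 CPM in WT (0.26, SE 0.69). It was the member with the largest SE, with 4 libraries at about 300 CPM or more and 1 library of each genotype below 100 CPM. The Vgf difference was 0.92 without KO replicate 2, −0.06 without KO replicate 1 and −0.49 without WT replicate F1. Scg2, the granin from which secretoneurin is cut, averaged 495 ± 56.1 CPM in KO and 484 ± 36.5 CPM in WT (SD, n = 3 each; 0.03), and its 6 values lay within 1.25-fold. For the 5 genes of this role the median was 0.19, with 5 of 5 above 0, but 1 of 5 on log2(TPM + 1) and 3 of 5, with a median of 0.07, without KO replicate 1.

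Of the MAP kinase phosphatases, Dusp1 had the smallest p of all members. Dusp1 (MKP-1) is a nuclear phosphatase that inactivates p38, JNK and ERK (chromosome 17, 26505590 to 26508519, minus strand), and its promoter stretch above holds a full CRE. It stood at 41.8, 31.1 and 30.3 CPM in the KO libraries, against 21.1, 23.8 and 23.3 CPM in the WT libraries. The groups did not overlap, with a log2 fold change of 0.59 (SE 0.15) and no call after adjustment (edgeR adjusted p = 0.735; DESeq2 adjusted p = 0.151). The Dusp1 difference was above 0 under all 20 alternatives, from 0.26 on log2(TPM + 1) to 0.70 in males only, and was 0.43 without KO replicate 1.

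Dusp6 (MKP-3), a cytoplasmic phosphatase specific for ERK, stood at 49.1, 52.1 and 47.0 CPM in KO, against 44.7, 49.6 and 29.0 CPM in WT (0.30, SE 0.15, edgeR adjusted p = 0.738). The 3 KO libraries lay close to the male WT libraries, with WT F1 apart from the other 5, and without WT F1 the Dusp6 difference was 0.10. Dusp14, a small atypical member of the family, averaged 38.5 ± 8.17 CPM in KO and 32.3 ± 8.85 CPM in WT (0.29). Dusp5, a nuclear phosphatase specific for ERK, averaged 9.91 ± 2.20 CPM in KO and 8.27 ± 1.99 CPM in WT (0.25). Dusp4, a nuclear phosphatase induced by ERK, averaged 10.2 ± 1.26 CPM in KO and 9.48 ± 0.95 CPM in WT (0.10; SD, n = 3 each for these 3 genes). Each of these 3 overlapped between the genotypes. Without WT replicate F1 the differences were 0.11 for Dusp14, 0.60 for Dusp5 and 0.29 for Dusp4. That of Dusp14 was 0.49 without KO replicate 1, and that of Dusp5 0.01 without WT replicate 1. The median of the 5 phosphatases was 0.29, with 5 of 5 above 0 in the edgeR fit and whichever library was left out, but 2 of 5 on log2(TPM + 1).

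The other feedback regulators of growth factor signalling showed no common direction. Trib1, a pseudokinase that brings a ubiquitin ligase to its targets, stood at 23.4, 17.7 and 16.2 CPM in KO, against 14.4, 18.7 and 12.2 CPM in WT (0.34, SE 0.16, edgeR adjusted p = 0.735). Its genotypes overlapped, and with 1 library left out the difference was between 0.23 and 0.47. The Sprouty proteins block the path from receptor tyrosine kinases to Ras: Spry2 averaged 38.6 ± 4.29 CPM in KO and 38.6 ± 4.03 CPM in WT (0.01). Spry4 averaged 12.3 ± 1.01 CPM in KO and 12.6 ± 0.55 CPM in WT (−0.05; SD, n = 3 each).

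Among the kinases was Plk2, a polo-like kinase that scales synapses down after prolonged activity. It stood at 154, 187 and 189 CPM in KO, against 168, 159 and 124 CPM in WT (0.24, SE 0.14). The genotypes overlapped through KO replicate 1, and WT F1 was again lowest. The Plk2 difference was 0.37 without KO replicate 1 and 0.06 without WT replicate F1. Plk3, a related kinase of the stress response, averaged 13.6 ± 0.78 CPM in KO and 12.8 ± 0.89 CPM in WT (0.09). Sik1, which phosphorylates the CREB coactivators of the CRTC family and so limits CREB output, averaged 16.5 ± 1.75 CPM in KO and 15.4 ± 0.30 CPM in WT (0.10). Pim1, a serine/threonine kinase regulated by its own abundance, averaged 6.38 ± 0.38 CPM in KO and 6.91 ± 0.65 CPM in WT (−0.11; SD, n = 3 each). Rgs2 and Rgs4 speed the return of G proteins to their inactive state. Rgs2 averaged 50.3 ± 8.13 CPM in KO and 46.7 ± 5.66 CPM in WT (0.11). Rgs4 stood at 388, 395 and 390 CPM in KO, against 433, 378 and 185 CPM in WT (0.32, SE 0.23). The KO libraries were nearly equal and lay between the male WT libraries, and WT F1 was lowest. The Rgs4 difference was −0.05 without WT F1, where genotype is read from the male libraries.

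The growth arrest and DNA damage genes lay near 0. Btg2, an antiproliferative cofactor of mRNA deadenylation whose promoter holds a full CRE, stood at 11.4, 12.5 and 13.9 CPM in KO, against 12.6, 11.4 and 14.1 CPM in WT (−0.01, SE 0.12). Its groups spanned nearly the same range. Gadd45b, linked to active DNA demethylation in neurons, averaged 7.66 ± 1.64 CPM in KO and 7.59 ± 0.81 CPM in WT (0.01). Gadd45g, of the same family, stood at 9.97, 10.3 and 10.6 CPM in KO, against 10.6, 11.4 and 12 CPM in WT (−0.13, SE 0.12, edgeR adjusted p = 0.802). Its highest KO value lay just under its lowest WT value.

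Of the 9 transcriptional regulators, 7 were above 0, with a median of 0.17, and 2 of 9 on log2(TPM + 1). Maff, a small Maf protein that pairs with other bZIP factors, stood at 2.74, 2.5 and 2.13 CPM in KO, against 0.64, 1.86 and 2 CPM in WT. The groups did not overlap, but the Maff difference of 0.73 (SE 0.43, edgeR adjusted p = 0.747) was 0.32 without WT replicate 1, the lowest library, and 1.11 without WT replicate 2. Klf10, a TGF-beta-inducible zinc finger factor, stood at 25.8, 28.7 and 24.3 CPM in KO, against 24.4, 25.0 and 16.6 CPM in WT (0.28, SE 0.13). Bhlhe40, a helix-loop-helix repressor tied to the circadian clock, stood at 102, 90.7 and 93.1 CPM in KO, against 83.7, 91.4 and 76.7 CPM in WT (0.19, SE 0.10). Ier2, an immediate early nuclear protein, stood at 9.28, 8.34 and 8.50 CPM in KO, against 7.53, 8.46 and 6.44 CPM in WT (0.23, SE 0.14). In these 3 genes WT F1 was lowest and the genotypes overlapped. Without WT F1 the differences were 0.14 in all 3.

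Atf3, a stress-induced bZIP factor, was the least abundant member, with 18, 24 and 8 counts in KO, against 32, 36 and 27 counts in WT. In CPM it stood at 0.63, 0.54 and 0.20 in KO, against 0.71, 0.85 and 0.46 in WT, a log2 fold change of −0.65 (SE 0.34, edgeR adjusted p = 0.744) with overlap, or −0.43 without WT replicate F1. Csrnp1, a nuclear protein induced by AXIN1, averaged 10.1 ± 0.35 CPM in KO and 8.99 ± 0.53 CPM in WT (0.17). Every KO value of Csrnp1 lay above every WT value. Csrnp1 overlaps Cx3cr1, a gene on its own strand with a mean of 5.75 CPM. Crem, a CREB relative whose short form ICER represses CRE promoters and is not told apart in gene counts, averaged 9.06 ± 0.82 CPM in KO and 8.38 ± 0.95 CPM in WT (0.11). Klf4, a zinc finger factor, averaged 6.77 ± 0.74 CPM in KO and 6.66 ± 0.75 CPM in WT (0.03). Ier5, an immediate early regulator of heat shock factor 1, averaged 45.1 ± 8.27 CPM in KO and 47.1 ± 16.1 CPM in WT (−0.01; SD, n = 3 each).

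The 2 enzymes of protein modification stood apart from each other. Fbxo33, the substrate receptor of a ubiquitin ligase, stood at 22.7, 41.0 and 43.1 CPM in KO, against 41.7, 44.2 and 40.9 CPM in WT (−0.26, SE 0.23). KO replicate 1 alone was low, and without it the Fbxo33 difference was −0.003. Tiparp, a mono-ADP-ribosyltransferase, averaged 14.1 ± 3 CPM in KO and 11.7 ± 0.82 CPM in WT (0.25; SD, n = 3 each), with a difference of 0.10 without KO replicate 1 and 0.46 without WT replicate F1.

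Genes related to the members were read from 4 lists: activity-induced transcription factors, calcium and CREB signalling, the ERK cascade, and receptors and partners of the members. Of all genes tested, 49.4% had a log2 fold change above 0 in the edgeR fit. An unadjusted p under 0.05 in that fit was held by 6.38%. Of 13 activity-induced transcription factors (the Fos, Jun, Egr and Nr4a families and Npas4), 13 had a log2 fold change above 0, and their median was 0.55. None passed in edgeR, 7 had an unadjusted p under 0.05, and DESeq2 called 3, Egr2, Egr3 and Nr4a1, all higher, where it called 75 of all 18956 genes (0.396%). Egr2, a zinc finger factor induced through SRF, stood at 10.2, 10.5 and 4.02 CPM in KO, against 3.67, 4.88 and 2.12 CPM in WT (1.16, SE 0.18, edgeR adjusted p = 0.568). Nr4a1, an orphan nuclear receptor, stood at 77.3, 76.2 and 53.5 CPM in KO, against 50.7, 60.3 and 32.2 CPM in WT (0.56, SE 0.12, adjusted p = 0.735). In both genes each KO library was above the WT libraries of its own sex. The list's median was between 0.47 and 0.59 with 1 library left out, and 12 of 13 were above 0 on log2(TPM + 1).

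Of 19 genes of calcium and CREB signalling, 19 were above 0 (6 of 19 on log2(TPM + 1)), with a median of 0.25, 0 past the edgeR threshold, 0 in DESeq2 and 6 at an unadjusted p under 0.05. Camk2b, a subunit of the calcium/calmodulin-dependent kinase, stood at 710, 766 and 680 CPM in KO, against 606, 577 and 540 CPM in WT, without overlap (0.32, SE 0.09). Mef2d, an activity-regulated transcription factor, had a log2 fold change of 0.32 (SE 0.09). Of 20 genes of the ERK cascade, 14 were above 0 (3 of 20 on log2(TPM + 1)), with a median of 0.11, 0 past in edgeR or DESeq2 and 2 at an unadjusted p under 0.05, the Ras activator Rasgrp1 (0.41, SE 0.13) and the SRF partner Elk1 (0.28, SE 0.10). Of 19 receptors and partners of the members, 15 were above 0 (2 of 19 on log2(TPM + 1)), with a median of 0.13, 0 past in edgeR or DESeq2 and 1 at an unadjusted p under 0.05. That gene was Shank1, a scaffold that binds Homer proteins, at 662, 500 and 394 CPM in KO, against 388, 417 and 323 CPM in WT (0.45, SE 0.13). Grm5, a receptor bound by Homer1, had a log2 fold change of 0.21 (SE 0.09).

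Marker genes of brain regions and cell types also differed between the libraries. Their counts in the edgeR fit stand beside 49.4% of all genes tested above 0 and 6.38% at an unadjusted p under 0.05. Of 12 markers of cortex and hippocampus excitatory neurons, 11 had a log2 fold change above 0 (7 of 12 on log2(TPM + 1)), with a median of 0.41, 6 at an unadjusted p under 0.05 and 0 past the threshold in edgeR or DESeq2. Their median was 0.21, with 9 of 12 above 0, without WT replicate F1. Their summed level was 3088 to 3703 CPM in KO, against 1930 to 3257 CPM in WT. Of 11 markers of striatal projection neurons, 11 were above 0 (9 of 11 on log2(TPM + 1); median 0.37), with sums of 1293 to 1713 CPM in KO and 575 to 1857 CPM in WT. Without WT replicate F1, 2 of the 11 striatal markers were above 0 and the median was −0.23, and without WT replicate 1 it was 0.73. Of 10 PVN markers, 4 were above 0 (median −0.21), with sums of 184 to 306 CPM in KO and 195 to 335 CPM in WT. Their median was 0.07, with 7 of 10 above 0, without WT replicate F1, 0.03 without KO replicate 2 and −0.57 without KO replicate 1. The median was 0.14 for markers of thalamic neurons, −0.06 for astrocytes, −0.10 for oligodendrocytes, −0.19 for microglia, 0.11 for endothelium and mural cells and −0.02 for choroid plexus and ependyma, with 0 genes of these lists past the threshold in edgeR and 1, the microglial receptor P2ry12, in DESeq2. P2ry12 was higher in KO, at 34.0, 27.9 and 22.7 CPM, against 16.9, 21.7 and 9.63 CPM in WT, while the microglial median was below 0. With 1 library left out the medians of these lists were between −0.23 (without KO replicate 1) and 0.33 for thalamic neurons, −0.15 and 0.31 (without WT or KO replicate F1) for astrocytes, and −0.13 and −0.02 for oligodendrocytes. They were between −0.27 and 0.01 (without KO replicate 1) for microglia, 0.01 and 0.14 for endothelium and mural cells, and −0.42 (without WT or KO replicate F1) and 0.18 (without WT replicate 2) for choroid plexus and ependyma. No marker on any of the lists was at 0 in all libraries. The mean log2(CPM + 0.5) of the 37 members was 4.92, 4.86 and 4.78 in KO, against 4.73, 4.84 and 4.54 in WT, and that of the cortex and hippocampus markers was 7.07, 6.87 and 6.71 in KO, against 6.73, 6.81 and 6.11 in WT. Both were highest in KO replicate 1 and lowest in WT replicate F1. The 13 mitochondrially encoded genes had a median of 1.06, which was 0.30 without KO replicate 1. In 12 of them every KO library lay above every WT library, as for 6.61% of all genes tested. The 6 heat shock genes of dissection stress had a median of −0.08 (0.02 without KO replicate 1, −0.17 without WT replicate F1), with summed levels of 1450 to 1669 CPM in KO and 1391 to 1706 CPM in WT. The part of region make-up and RNA quality in the members' differences was not tested.

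**Figure D4:**
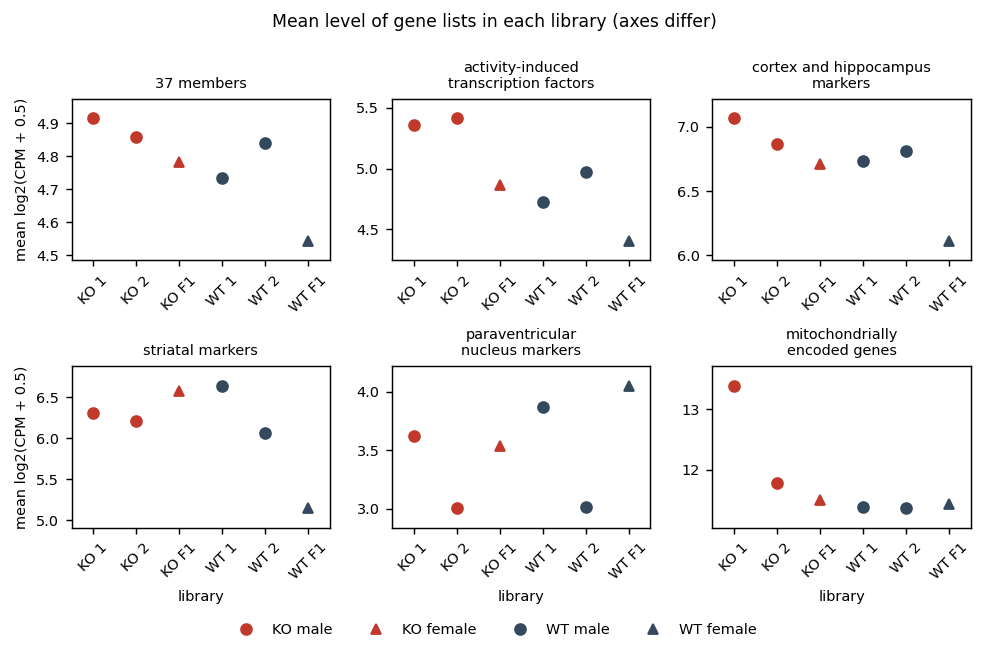
Mean log2(CPM + 0.5) of 6 gene lists in each library (KO in red, left; WT in dark blue; circles male, triangles female), with a separate y axis in each panel. WT F1 is lowest for the 37 members (4.54), the activity-induced transcription factors, and the cortex, hippocampus and striatal markers, but highest for the PVN markers, and KO 1 stands apart in the mitochondrially encoded genes.

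The members were also compared between the sexes, in the same fit. There 0 of 37 members passed for female against male in edgeR (0.0422% of all genes did), 7 had an unadjusted p under 0.05 (4.58% of all genes), and 29 of 37 were below 0 (50.1% of all genes). DESeq2 called 1 member and 0.274% of all genes. The member was Homer1 (−0.74, SE 0.16, adjusted p = 0.00338), which stood at 115 and 72.1 CPM in the female KO and WT libraries, against 181, 153, 143 and 135 CPM in the males. The other 6 were Inhba (−0.89, SE 0.24), Atf3 (−1.08, SE 0.38), Dusp6 (−0.39, SE 0.16), Klf10 (−0.37, SE 0.14), Nrn1 (−0.30, SE 0.11) and Nptx2 (−0.30, SE 0.10). There is 1 female library per genotype, so within a genotype sex and that 1 library cannot be told apart. WT F1, the library with the lowest cortical markers, is 1 of the 2, and its part here was not tested. In these 7 members, picked by the same sex test, KO F1 also lay below both male KO libraries. For Atf3 the lowest library was KO F1.

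Whether the KO minus WT difference was the same in both sexes was tested with an interaction term, which leaves 2 residual degrees of freedom. With 1 female library per genotype, both come from the male libraries, so this test holds no measure of the spread between females. In edgeR 0 of 37 members passed (0.0739% of all genes did) and 6 had an unadjusted p under 0.05 (7.42% of all genes), namely Rgs4, Arc, Ier5, Dusp5, Bdnf and Dusp6. DESeq2 called 2 members and 1.25% of all genes. Arc had an interaction of 1.35 (SE 0.27, edgeR adjusted p = 0.277; DESeq2 adjusted p = 0.00823), with a KO minus WT difference of −0.42 in males and 0.91 in females. Rgs4 had one of 1.13 (SE 0.21, edgeR adjusted p = 0.259; DESeq2 adjusted p = 0.0102), with −0.05 in males and 1.07 in females. Both values in females are set against WT F1 alone. In males 26 of the 37 differences were above 0, and in females also 26, but the members with the largest differences were not the same: Maff (0.93), Dusp1 (0.68) and Dusp5 (0.59) stood highest in males, and Vgf (1.85), Rgs4 (1.07) and Arc (0.91) in females. In 7 of the 37 the male KO libraries lay wholly on 1 side of the male WT libraries and KO F1 on the other side of WT F1, as for 21.1% of all genes tested.

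**Figure D5:**
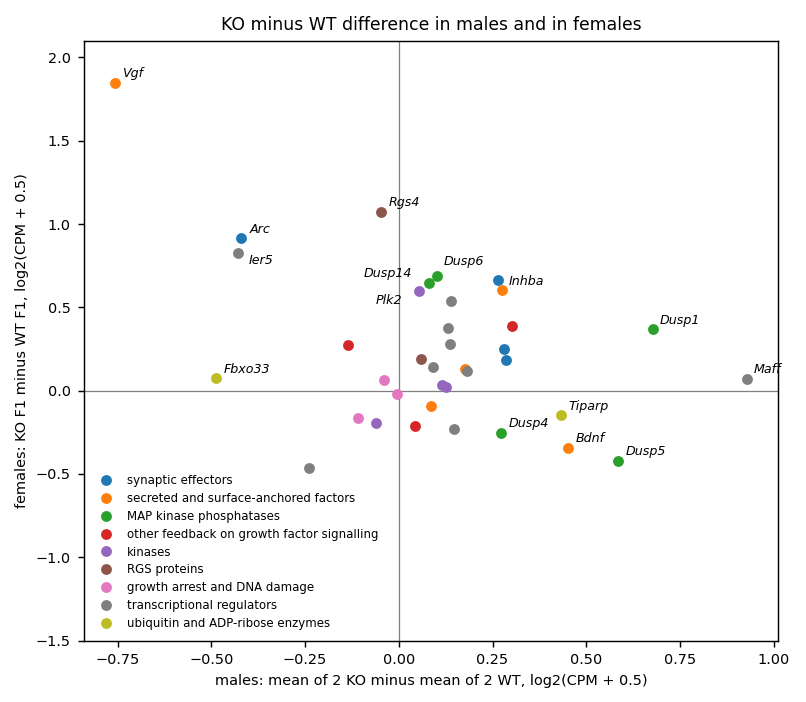
KO minus WT difference in log2(CPM + 0.5) of each member in males (x axis, mean of 2 KO minus mean of 2 WT libraries) and in females (y axis, KO F1 minus WT F1), coloured by role. Vgf, Arc and Ier5 lie left of 0 and well above it, Dusp5 and Bdnf right of 0 and below it, and Dusp1 is above 0 on both axes (0.68 and 0.37).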

How the data were processed

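For 6 libraries and 51826 Ensembl genes the authors deposited whole-number counts together with TPM and FPKM, per the file headers. The tools named in the submitters' processing notes are bedtools 2.26.0, Trimmomatic 0.36 and FastQC 0.11.2. Per the labels' protocols, RNA was extracted with a TRIzol-type reagent and made into libraries with an mRNA kit. Not given in the sources used here are the aligner, the counter, whether it used strand, and the build. Of the gene identifiers 99.6% matched GENCODE M21 of GRCm38, and 27 of the 37 members had identical coordinates there. No per-sample column was left out (0). Deposited FPKM values were only checked as a constant multiple of the deposited TPM values, which were used for levels between genes and for an alternative test. At the depths given, 3 counts correspond to 0.055 to 0.085 CPM, which covers counting error only.

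Deposited counts were tested with edgeR 4.0.16 in R 4.3.3 (robust glmQLFit and glmQLFTest) after filterByExpr by genotype (18956 genes kept) and TMM scaling, with genotype and sex as terms and 3 residual degrees of freedom. P-values were Benjamini-Hochberg adjusted over all genes tested at a threshold of 0.05. SE is the size of the log2 fold change over the square root of its F statistic. CPM are counts relative to TMM-scaled library sizes. The scripts were tested on simulated data. Alternatives used DESeq2 1.42.0, limma 3.58.1 (voom with quality weights, limma-trend), other scalings, filters, terms and left-out libraries.

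The members, gene lists, tests and alternatives were chosen with earlier results of these data known. All members are named. Values in every library are given for the 14 members with the smallest p, for 9 always included (Arc, Bdnf, Homer1, Nptx2, Vgf, Dusp1, Dusp6, Btg2, Atf3), and, chosen after their values were seen, for Rgs4, Fbxo33, Gadd45g, Ier5 and Dusp5. From each pathway list the 2 genes with the smallest p are named, and Noct, Egr3, P2ry12, Avp, Sim1 and Nrgn were named after their values were seen. Lists are described by counts and medians. Of 7 members that overlap another tested gene only Inhba and Csrnp1 have a partner above 2 CPM. Promoters come from RefSeq. A planned protein comparison was not run, as no protein table was used here.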

Additional observations from a re-analysis of the deposited data

Results flagged for a closer look

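In 7 members the KO libraries of males lay on 1 side of the male WT libraries without overlap and the female KO library lay on the other side of the female WT library, as for 21.1% of all genes tested. The difference between the sexes was tested for each by the interaction term in edgeR, and none passed after adjustment over all genes. Arc, Ier5 and Fbxo33 were lower in male KO libraries and higher in the female one, with interactions of 1.35 (adjusted p = 0.277), 1.25 (adjusted p = 0.359) and 0.50 (adjusted p = 0.902). Ier5 stood at 35.7, 48.5 and 51.2 CPM in KO, against 53.9, 58.7 and 28.7 CPM in WT. Dusp5, Bdnf, Tiparp and Dusp4 were higher in male KO libraries and lower in the female one, with interactions of −1.04 (adjusted p = 0.554), −0.81 (adjusted p = 0.558), −0.61 (adjusted p = 0.778) and −0.55 (adjusted p = 0.761). Dusp5 stood at 11.4, 11.0 and 7.38 CPM in KO, against 6.12, 8.64 and 10.1 CPM in WT. Each female side rests on 1 library per genotype, and WT F1 is the library with the lowest cortical and striatal marker levels. The part of that library in these patterns was not tested.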

How the results depend on the processing

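No member passed the threshold for KO against WT under any of the 20 alternatives. The count of all genes past it was 1 in the edgeR fit, 4 with no filter on low counts, 75 in DESeq2, 4 with voom weights, 4 and 5 on log2(TPM + 1) and log2(TPM + 0.1), 3 with no sex term, 18 in males only, 27 without WT F1 and KO 1 together (a fit with no sex term, in which KO F1 is the only female library, so sex enters the genotype difference), and 0 to 20 when 1 library was left out (0 without WT replicate 1, WT replicate 2 or KO replicate 2, 7 without KO replicate 1, 15 without KO replicate F1, 20 without WT replicate F1). With the replicate number as a replicate block 0 genes passed, and the members' median was 0.16 with 29 above 0. Deviations of same-numbered libraries correlated at −0.04, 0.02 and 0.01, and not every library correlated best with its own number. These values show no pairing by number but cannot exclude one. The members' median of 0.17 was 0.0053 with library totals, −0.13 on log2(TPM + 1), log2(TPM + 0.1) and log2(TPM + 1) with no filter, 0.061 without WT F1 and KO 1, and 0.11 to 0.21 with 1 library left out. Members above 0 numbered 19, then 8, 7 and 8, 24, and 26 to 30 under the same settings. The cause of these shifts was not tested. DESeq2 called 1 member for sex and 2 for the interaction. For single members, counting a change of sign only where both values exceeded their SE, 1 of 739 values turned, Inhba at −0.25 without WT F1 and KO 1 and with no sex term. Atf3 did not reach the stricter filter of 1 CPM. At 8 to 36 counts per library, depth limits Atf3.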
